A study of Homo sapiens with 9 samples.

Results

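The EGF receptor family and its ligands were followed here through 10 genes of 56865 summed in the series, a list set by gene name. They are the receptors EGFR, ERBB2 and ERBB3, the ligands AREG, EREG, HBEGF, TGFA and EPGN, the protease ADAM17 and the receptor inhibitor ERRFI1. Poly(A)-selected RNA had been sequenced from a culture labelled BxPC3, an established line of human pancreatic adenocarcinoma, with 3 libraries each for MS172, PK9328 and the vehicle DMSO. All 9 libraries carried the genotype label p53Y220C/-, a p53 gene with the Y220C mutation. PK9328 is a small molecule known as a ligand of this mutant p53. The protocol sets 5 µM and 6 h for PK9328 and for a compound it calls MS78, and does not name MS172, so the 2 compounds can be taken as matched in dose and time only if those figures hold for MS172. Whether a group's 3 libraries came from separate cultures is not stated, so the p-values cover the spread between these libraries, which may be technical.

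EGFR family receptors are kinases of the cell surface that pair up when a ligand binds, and they pass the signal to the RAS-ERK and PI3K-AKT routes. Their ligands are made as precursors anchored in the membrane, and ADAM17 cuts several of them free. ERRFI1, also called MIG6, binds the EGFR kinase and restrains it, and its transcription is itself raised by receptor signalling, as is that of several ligands. In pancreatic adenocarcinoma the pathway is known as a source of growth signals, and EGFR has been a drug target there.

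Libraries held 24077353 to 28031886 estimated reads, and 13914 genes passed the filter on low counts. Levels are given in CPM (estimated reads scaled to a common library size with TMM factors) or in TPM. The TPM values are the deposited ones, summed per gene, and they account for transcript length within each library. They carry no TMM factors, so CPM and TPM can differ between groups through the scaling as well as through length. Among the 15 ductal and epithelial markers 8 stayed below 1 CPM in every library, among them EPCAM (at most 0.0745 CPM), CDH1 (0.0417 CPM) and KRT7 (0.103 CPM), which goes against an epithelial line, and the cells are called here by their label. The other 7 were KRT18, KRT8, KRT19, SOX9, CLDN4, ELF3 and MUC1, at 785, 732, 311, 289, 122, 10.6 and 3.77 CPM with DMSO. Among 12 mesenchymal markers 7 stayed below 1 CPM. With DMSO the other 5, VIM, COL1A2, ZEB1, COL3A1 and COL1A1, were at 9391, 2416, 91.8, 6.64 and 1.41 CPM. The summed ductal markers were 2631 to 2794 CPM with MS172, 2019.8 to 2100.3 CPM with PK9328 and 2167 to 2336 CPM with DMSO. The mesenchymal markers summed to 12405 to 12928 CPM with MS172, 9984 to 10252 CPM with PK9328 and 11793 to 11971 CPM with DMSO, and the part of either list in the results was not tested. VIM and COL1A2 made up nearly all of the mesenchymal sum with DMSO. In bulk RNA, fewer cells of a kind and less RNA per cell cannot be told apart. Fragments were estimated at 274 to 293 bases with MS172, 249.5 to 263 bases with PK9328 and 281 to 289 bases with DMSO, so PK9328 had the shortest fragments, and their part in the PK9328 results was not tested beyond a fit with fragment length as a covariate.

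Promoter sequence was available for 9 of the 10 members, from RefSeq on GRCh38.p14 (ERBB3 had none). The 250 bases before the start site are shown for the 3 ligands that were expressed and for EPGN, a ligand gene next to EREG that was not. Capitals mark the matches to TATAAA, to the cAMP response element TGACGTCA and to the GC box GGGCGG or its reverse complement.
AREG chr4:74444886-74445135 (plus strand): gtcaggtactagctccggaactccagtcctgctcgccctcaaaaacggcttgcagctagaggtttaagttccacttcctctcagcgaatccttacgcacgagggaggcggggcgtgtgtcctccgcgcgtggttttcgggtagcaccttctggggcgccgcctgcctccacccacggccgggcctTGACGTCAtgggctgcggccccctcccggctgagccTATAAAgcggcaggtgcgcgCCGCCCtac
EREG chr4:74364895-74365144 (plus strand): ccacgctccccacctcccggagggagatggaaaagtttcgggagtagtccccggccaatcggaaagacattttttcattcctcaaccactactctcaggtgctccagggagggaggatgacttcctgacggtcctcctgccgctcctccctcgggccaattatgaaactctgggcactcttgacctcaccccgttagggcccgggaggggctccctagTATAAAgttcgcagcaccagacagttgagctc
HBEGF chr5:140346604-140346853 (minus strand): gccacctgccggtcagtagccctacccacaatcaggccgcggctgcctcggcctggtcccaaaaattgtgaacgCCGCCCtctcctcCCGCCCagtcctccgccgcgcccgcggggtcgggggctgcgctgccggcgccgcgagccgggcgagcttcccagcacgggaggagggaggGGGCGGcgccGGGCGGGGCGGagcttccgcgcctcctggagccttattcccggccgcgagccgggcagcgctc
EPGN chr4:74308220-74308469 (plus strand): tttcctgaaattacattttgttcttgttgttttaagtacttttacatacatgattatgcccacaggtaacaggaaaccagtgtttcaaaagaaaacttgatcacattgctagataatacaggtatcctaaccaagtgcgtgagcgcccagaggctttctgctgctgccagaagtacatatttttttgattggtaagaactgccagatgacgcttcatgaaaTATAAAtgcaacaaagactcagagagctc
AREG held TGACGTCA at positions -65 to -58 from the start site and a GC box at -9 to -4. TGACGTCA is a match found in 1.65% of 35116 promoters of this length. AREG, EREG and EPGN each held TATAAA between positions -32 and -24, a match found anywhere in the window in 10.7% of promoters. HBEGF had no TATAAA and 5 GC box matches, of which 2 overlap by 1 base, while 42.6% of promoters held at least 1. The windows held 65.2% G and C in AREG, 58.0% in EREG, 76.4% in HBEGF and 38.0% in EPGN, against a median of 58.0% over all promoters. Both strands were also searched for the AP-1 site TGANTCA (6.57% of promoters), the ATF4 element TGATGNAAN (3.13%), the antioxidant element TGACNNNGC (10.9%) and an NF-kB form, GGG and CC with 5 bases between them (54.4%). Of these 4, the promoters printed here held the NF-kB form alone, 2 times in AREG and 1 time in HBEGF, there overlapping a GC box.

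Per length of transcript, the inhibitor stood far above the receptors it acts on. With DMSO, ERRFI1 averaged 493 ± 31.7 TPM (SD, n = 3), AREG 133 ± 8.0, EREG 60.2 ± 8.5, ERBB2 60.1 ± 4.8 and ADAM17 29.6 ± 1.5. EGFR followed at 13.1 ± 1.7 TPM, HBEGF at 11.6 ± 0.95 and ERBB3 at 3.47 ± 0.13. The ranges of EREG and ERBB2 overlapped, as did those of EGFR and HBEGF, and all other neighbours in this order were apart. ERRFI1 ranked 251 of 13914 tested genes by mean TPM over the 9 libraries, AREG 835 and ERBB3 10068. The order held with both compounds except that HBEGF passed EGFR, with 19.8 to 20.5 TPM against 9.50 to 10.6 TPM for EGFR with MS172, and 15.8 to 16.1 TPM against 12.0 to 13.3 TPM for EGFR with PK9328.

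**Figure D1:**
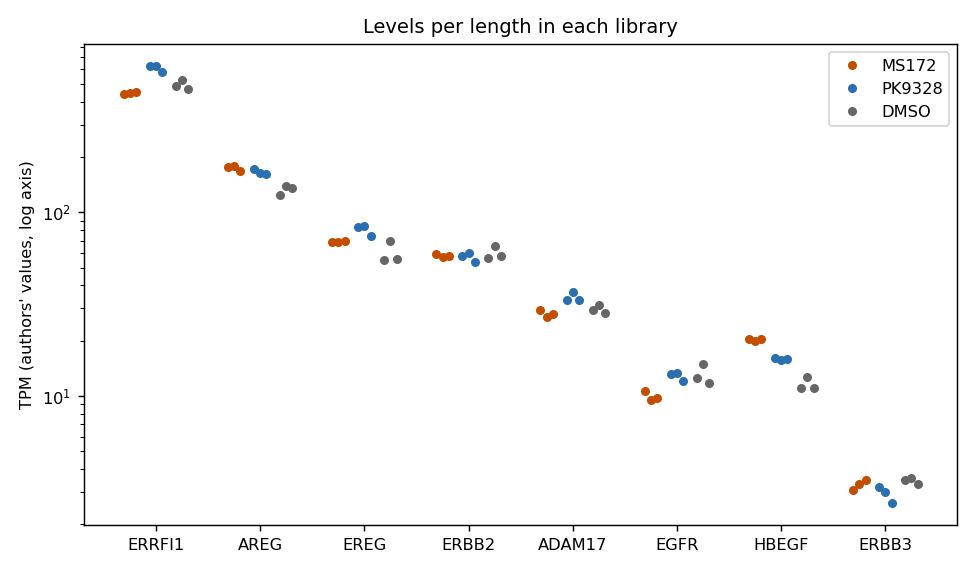
TPM of the 8 expressed members in each library, on a log axis, with MS172, PK9328 and DMSO from left to right within a gene and genes ordered by their DMSO mean. ERRFI1 lies highest and ERBB3 lowest in every library, and HBEGF lies above EGFR with both compounds.

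TGFA and EPGN had few reads and were not tested. TGFA, the ligand TGF-alpha, had 2 reads in all 3 MS172 libraries together, 2 with PK9328 and 1 with DMSO. EPGN, which encodes epigen, had 2 reads with MS172, 0 with PK9328 and 5 with DMSO, with no more than 3 in any library. A count of 0 allows up to 3 reads, which is 0.103 to 0.133 CPM depending on the library, and no difference between groups was detectable at such counts. Thus 8 of the 10 members passed the filter.

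HBEGF, which encodes heparin-binding EGF-like growth factor, a ligand of EGFR and ERBB4, had the largest difference among the members tested. It stood at 40.7, 39.7 and 39.5 CPM with MS172, at 27.7, 26.8 and 28.1 CPM with PK9328, and at 19.7, 21.75 and 20.4 CPM with DMSO. The 3 groups did not overlap, and PK9328 lay between the others. HBEGF rose with MS172 by 0.95 ± 0.06 on the log2 scale (SE, edgeR adjusted p = 7.3e-14) and with PK9328 by 0.41 ± 0.06 (edgeR adjusted p = 1e-05). The difference of 0.54 between MS172 and PK9328 also passed (edgeR adjusted p = 4.5e-09). The gene lies on chromosome 5 (140332843 to 140346631, minus strand, GRCh38), and 1 coding transcript of 6 exons held 100% of its TPM.

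AREG, which encodes amphiregulin, a ligand of EGFR, stood at 161, 163 and 148 CPM with MS172, at 137, 129 and 134 CPM with PK9328, and at 101, 108 and 113 CPM with DMSO. Its 3 groups were in the same order as those of HBEGF and did not overlap either. It rose by 0.55 ± 0.04 with MS172 (SE, edgeR adjusted p = 1.9e-10) and by 0.31 ± 0.04 with PK9328 (edgeR adjusted p = 1.6e-05). MS172 exceeded PK9328 by 0.24 (edgeR adjusted p = 6.2e-05), or by 0.10 where library totals replaced the TMM factors (edgeR adjusted p = 0.066). In TPM, the MS172 libraries (168 to 179) overlapped with those of PK9328 (163 to 173).

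EREG, which encodes epiregulin, a ligand of EGFR and ERBB4, stood at 278, 281 and 276 CPM with MS172, at 295, 293 and 268 CPM with PK9328, and at 202, 246 and 209 CPM with DMSO. Both compound groups lay above DMSO and overlapped with each other, and DMSO replicate 2 was the highest of its group. EREG rose by 0.35 ± 0.07 with MS172 (SE, edgeR adjusted p = 0.0035) and by 0.38 ± 0.07 with PK9328 (edgeR adjusted p = 0.0047). The compounds differed by -0.04 (95% interval -0.19 to 0.12, edgeR adjusted p = 0.69). With library totals the MS172 value was 0.24 (edgeR adjusted p = 0.058), and in TPM DMSO replicate 2 at 70.0 lay above the MS172 libraries at 68.5 to 69.8. The PK9328 libraries, at 74.6 to 84.3 TPM without TMM factors, lay above those of MS172 and DMSO. With length-scaled TPM, fitted with TMM factors, the compounds differed by -0.02 (edgeR adjusted p = 0.867).

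Summed per length, AREG, EREG and HBEGF came to 258 to 268 TPM with MS172, 253 to 273 TPM with PK9328 and 190 to 222 TPM with DMSO. The compound groups overlapped with each other and not with DMSO. HBEGF made up 7.40% to 7.88% of that sum with MS172, 5.89% to 6.26% with PK9328 and 5.49% to 5.81% with DMSO. AREG was 2.41 to 2.62 times EREG with MS172, 1.95 to 2.18 times with PK9328 and 1.99 to 2.43 times with DMSO, so this ratio overlapped between each compound and DMSO, and not between the compounds.

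**Figure D2:**
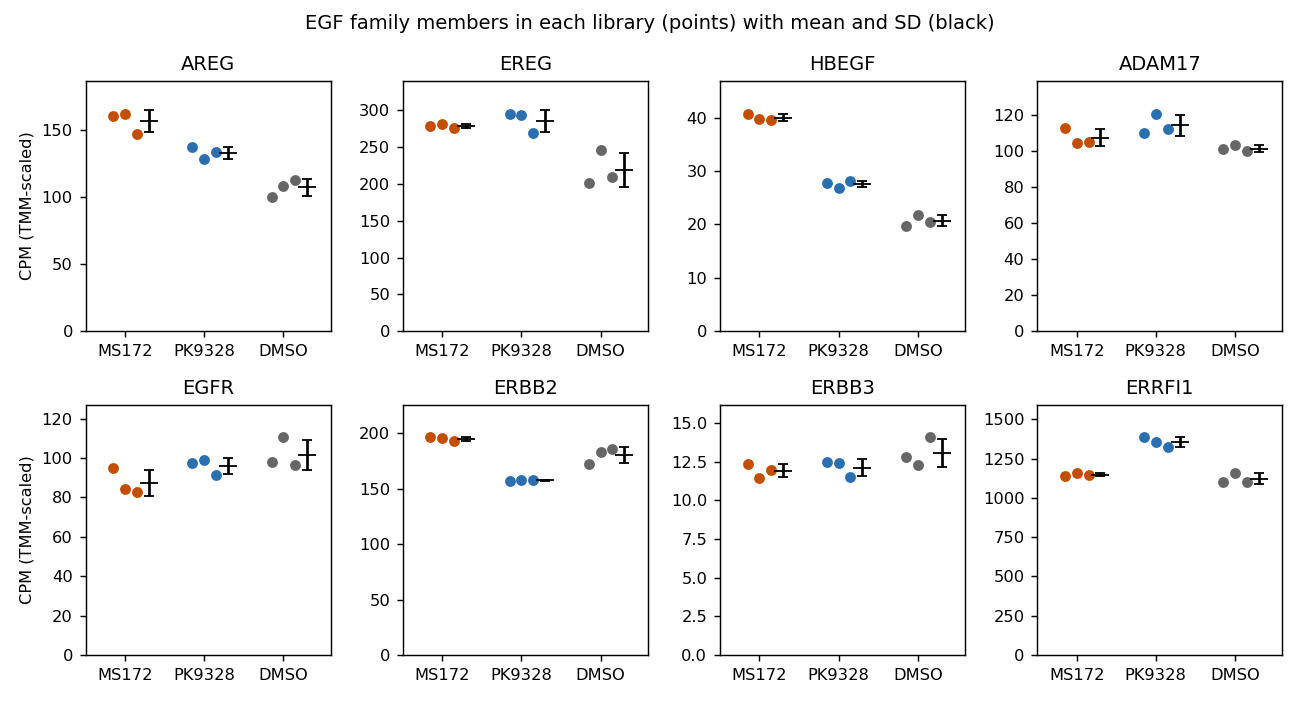
TMM-scaled CPM of the 8 tested members in each library, with MS172, PK9328 and DMSO from left to right, points for replicates 1 to 3 and black marks for the mean and SD. HBEGF and AREG step down in that order, EREG is raised in both compound groups, and ERRFI1 is raised with PK9328, at 1323 to 1385 CPM.

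EGFR, the receptor of amphiregulin and the other ligands named, was lower with MS172. It stood at 94.99, 84.2 and 82.8 CPM with MS172, at 97.6, 98.9 and 91.2 CPM with PK9328, and at 97.8, 111 and 96.55 CPM with DMSO. The MS172 libraries lay below all DMSO libraries and overlapped with PK9328. EGFR fell with MS172 by 0.22 ± 0.06 on the log2 scale (SE, edgeR adjusted p = 0.0075), a call that held in all 16 alternatives, with values from -0.33 to -0.15. With PK9328 its value was -0.08 (95% interval -0.21 to 0.04, edgeR adjusted p = 0.37). The compounds differed by -0.14 (95% interval -0.26 to -0.01, edgeR adjusted p = 0.067), and 6 of 16 alternatives called that difference, among them the fits without MS172 replicate 1 (edgeR adjusted p = 0.00538) and without PK9328 replicate 3 (0.0351). EGFR spans 192.6 kb of chromosome 7 (55019021 to 55211628, plus strand), and a transcript of 28 exons held 94.3% to 99.6% of its TPM.

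ERBB2, the receptor HER2 that has no ligand of its own (chromosome 17, 39687914 to 39730426, plus strand), was lower with PK9328 than with MS172. Its CPM was 196, 196 and 193 with MS172 and 157, 158 and 157 with PK9328, and with DMSO it averaged 180.3 ± 7.29 (SD, n = 3), with 183 and 186 in replicates 2 and 3. The 3 groups did not overlap, and replicate 1 was the lowest DMSO library. It fell with PK9328 by 0.20 ± 0.04 (SE, edgeR adjusted p = 0.00033), and MS172 exceeded PK9328 by 0.31 ± 0.04 (edgeR adjusted p = 4.8e-08). Its rise with MS172, 0.11 ± 0.04 (edgeR adjusted p = 0.016), was lost with library totals, at 0.00 (edgeR adjusted p = 0.93), with length-scaled TPM (0.102), and without MS172 replicate 1 (0.0543), MS172 replicate 2 (0.0504) or DMSO replicate 1 (0.119). The fall with PK9328 was lost with length-scaled TPM, at -0.12 (edgeR adjusted p = 0.144), and in TPM the 3 groups overlapped, at 57.0 to 59.4 with MS172, 53.7 to 60.05 with PK9328 and 56.7 to 65.7 with DMSO. The difference between the compounds held in all 16 alternatives.

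ERBB3, the receptor HER3, whose kinase is weak and which signals through its partners, was the lowest of the 3 receptors (chromosome 12, 56076799 to 56103505, plus strand). It stood at 12.3, 11.45 and 12.0 CPM with MS172, at 12.4, 12.4 and 11.5 CPM with PK9328, and at 12.8, 12.3 and 14.1 CPM with DMSO, and the groups overlapped. In TPM, ERBB3 was lower in all PK9328 libraries (2.61 to 3.18) than in those of DMSO (3.33 to 3.58). With length-scaled TPM, ERBB3 had -0.29 with PK9328 (edgeR adjusted p = 0.0868). Its log2 fold change was -0.13 with MS172 (95% interval -0.30 to 0.05, edgeR adjusted p = 0.27) and -0.10 with PK9328 (95% interval -0.28 to 0.07, edgeR adjusted p = 0.46), and the compounds differed by -0.02 (95% interval -0.20 to 0.15, edgeR adjusted p = 0.85). Within a library, where the scaling cancels, ERBB2 was 5.59 to 6.00 times EGFR in TPM with MS172, 4.38 to 4.53 times with PK9328 and 4.39 to 4.95 times with DMSO. The MS172 ratios lay above all others, and those of PK9328 and DMSO overlapped.

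ADAM17, the protease also called TACE (chromosome 2, 9488486 to 9556732, minus strand), stood at 113, 105 and 105 CPM with MS172, at 110.1, 121 and 112 CPM with PK9328, and at 101, 103 and 100.01 CPM with DMSO. Both compound groups lay above DMSO in CPM and overlapped with each other. In TPM, the MS172 libraries (27.0 to 29.5) overlapped with DMSO (28.2 to 31.3), and those of PK9328 (33.1 to 37.0) lay above both. ADAM17 rose by 0.17 ± 0.04 with PK9328 (SE, edgeR adjusted p = 0.0046), a call lost without PK9328 replicate 2, at 0.13 (edgeR adjusted p = 0.0668). With MS172 it had 0.08 (95% interval -0.0035 to 0.17, edgeR adjusted p = 0.13), which library totals turned to -0.02. The compounds differed by -0.09 (95% interval -0.18 to -0.0028, edgeR adjusted p = 0.083), a difference called at -0.12 without MS172 replicate 1 (0.0329) or PK9328 replicate 1 (0.0471) and at -0.23 with library totals.

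ERRFI1 (chromosome 1, 8004404 to 8026308, minus strand) was higher with PK9328 than in the other 6 libraries. It stood at 1139, 1159 and 1142.5 CPM with MS172, at 1385, 1357.5 and 1323 CPM with PK9328, and at 1103, 1160.3 and 1099 CPM with DMSO. All PK9328 libraries lay above all others, while MS172 and DMSO overlapped. In TPM, which carries no TMM factors, the MS172 libraries (443 to 452) lay below those of DMSO (467 to 528). With length-scaled TPM, fitted with TMM factors, ERRFI1 had 0.02 with MS172 (edgeR adjusted p = 0.762). It rose by 0.27 ± 0.04 with PK9328 (SE, edgeR adjusted p = 4.6e-06), and MS172 against PK9328 had -0.24 ± 0.04 (edgeR adjusted p = 4.1e-06). Both calls held in all 16 alternatives. With MS172 against DMSO it had 0.03 (95% interval -0.04 to 0.11, edgeR adjusted p = 0.52), which library totals turned to -0.07. In TPM, ERRFI1 was 41.7 to 46.8 times EGFR with MS172, 47.3 to 48.6 times with PK9328 and 35.3 to 39.7 times with DMSO, and these ranges did not overlap.

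In all, 4 of 8 tested members rose and 1 fell with MS172, where 35.1% of tested genes were called, 17.9% higher and 17.2% lower. With PK9328, 5 rose and 1 fell, where 15.5% of tested genes were called, 7.98% higher and 7.48% lower. MS172 against PK9328 gave 3 higher and 1 lower, where 47.7% were called, 23.3% higher and 24.4% lower. The members were chosen with earlier results of these data known, and whether they differ from these shares was not tested. The members' median log2 fold changes were 0.10, 0.22 and -0.03, beside -0.02, 0.00 and -0.03 over all tested genes. Both comparisons with vehicle share the DMSO libraries, so they are not independent of each other. With fragment length as a covariate, which overlaps with the PK9328 group and widens the standard errors (ERBB2 ± 0.074 in place of ± 0.04), 1 member was called with PK9328, ERRFI1 at 0.32 (edgeR adjusted p = 0.0206), while HBEGF stood at 0.33, EREG at 0.45, AREG at 0.21, ADAM17 at 0.12 and ERBB2 at -0.24 (edgeR adjusted p = 0.186, 0.285, 0.292, 0.62 and 0.103). Without TMM factors the median of all tested genes moved to -0.13 for MS172 against DMSO, with 980 genes higher and 4474 lower in place of 2486 and 2398. Of the members, HBEGF and AREG were then called higher and EGFR and ERBB3 lower, the last at -0.23 (edgeR adjusted p = 0.0313).

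**Figure D3:**
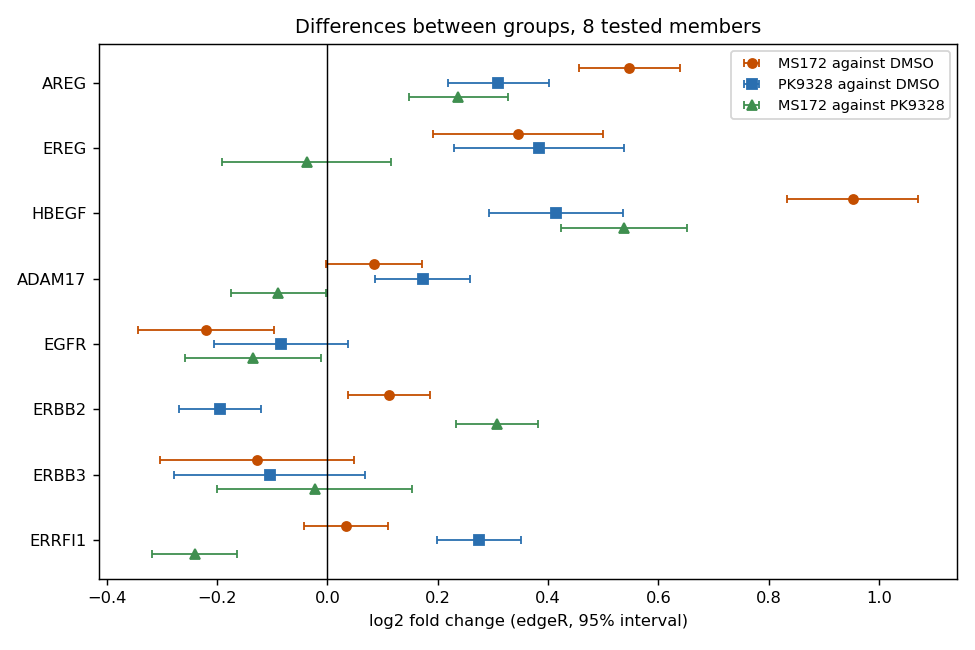
Log2 fold changes of the 8 tested members with 95% intervals, for MS172 against DMSO (circles), PK9328 against DMSO (squares) and MS172 against PK9328 (triangles). The 3 ligands lie above 0 in both comparisons with DMSO, and ERBB2 and ERRFI1 lie on different sides of 0 for MS172 against PK9328, at 0.31 and -0.24.

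Within genes, the authors' quantification assigned reads to single transcripts, and values of transcripts that share most of their exons are uncertain. ERRFI1-205, annotated as a target of nonsense-mediated decay (787 bases), held 3.42%, 3.404% and 3.59% of the gene's TPM with MS172, 4.402%, 5.54% and 4.71% with PK9328, and 5.78%, 4.64% and 4.73% with DMSO. The MS172 libraries lay below all others. ERBB3-213, a coding transcript of 6 exons and 3289 bases, held 34.1%, 52.1% and 50.3% of ERBB3 with MS172, 0% in the 3 PK9328 libraries, and 26.2%, 23.45% and 0% with DMSO. This rested on 72.6 to 117 estimated reads with MS172, and rebuilding the counts from length-scaled TPM turned the ERBB3 value with MS172 to 0.09 (edgeR adjusted p = 0.559) and that against PK9328 to 0.38 (edgeR adjusted p = 0.00819). ERBB2-203 held 4.28% to 7.21% of ERBB2 with MS172, 7.47% to 14.3% with PK9328 and 10.5% to 12.3% with DMSO. Replicate 3 was apart from its group in PK9328, where the transcripts ERBB2-201 and ERBB2-204 held 22.1% and 50.8%, against 35.8% to 40.0% and 24.7% to 28.1% in replicates 1 and 2.

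**Figure D4:**
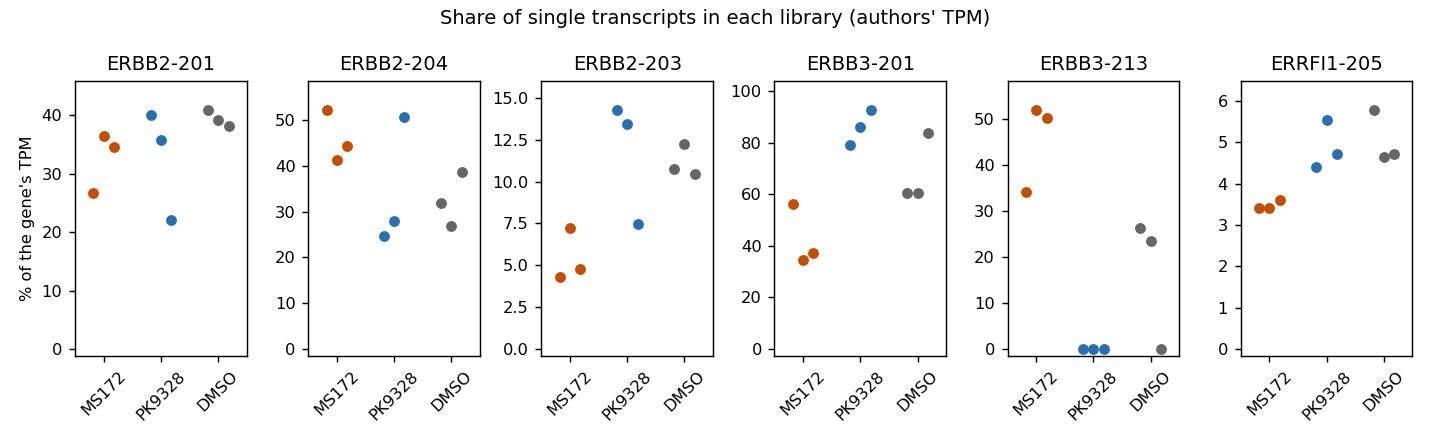
Share of 6 transcripts in the TPM of their gene, in percent, in each library, with MS172, PK9328 and DMSO from left to right. ERRFI1-205 is below 3.6% in the MS172 libraries, and ERBB3-213 is at 0% in the PK9328 libraries and in DMSO replicate 3.

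EREG and AREG are neighbours on chromosome 4, 56.4 kb apart, with EPGN 49.8 kb before EREG (74308473 to 74455009 for the 3 genes, plus strand). Within 1 Mb on either side, 14 of 45 annotated genes were tested, EREG and AREG included, and 7 of the others were chemokine genes on the EPGN side. With MS172 7 of the 14 rose and 1 fell, and with PK9328 5 rose and 1 fell, beside 17.9% higher and 17.2% lower with MS172 and 7.98% and 7.48% with PK9328 over all tested genes. CXCL8, a neutrophil chemokine, rose with MS172 by 1.99 and with PK9328 by 0.41, and CXCL5, of the same family, rose with MS172 by 1.37. BTC, the ligand betacellulin on the other side of AREG, had -0.17 with MS172 (edgeR adjusted p = 0.58) and -0.04 with PK9328 (edgeR adjusted p = 0.93) at a mean of 2.21 CPM. CXCL1 was higher with MS172 and lower with PK9328, at 0.32 for MS172 (edgeR adjusted p = 3.5e-05) and -0.19 for PK9328 (edgeR adjusted p = 0.015). CXCL6 had 0.27 with MS172 and -0.13 with PK9328 (edgeR adjusted p = 0.037 and 0.44). The order was the other way for CXCL3, at -0.13 and 0.48 (edgeR adjusted p = 0.51 and 0.012). The same held for CXCL2, at 0.30 and 0.58 (edgeR adjusted p = 0.02 and 7.1e-05). PF4, at a mean of 0.486 CPM, was called with neither compound.

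**Figure D5:**
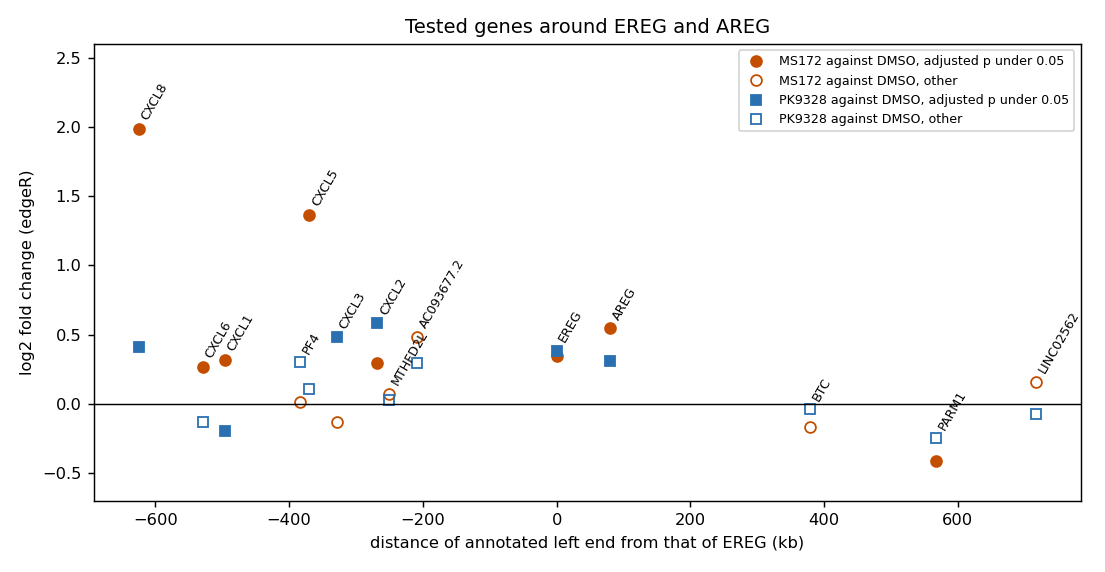
Log2 fold changes of the 14 tested genes within 1 Mb of the EPGN, EREG and AREG genes, by the distance in kb of their left end from that of EREG, for MS172 (circles) and PK9328 (squares) against DMSO, filled where the edgeR adjusted p is under 0.05. EREG and AREG are filled for both compounds, and CXCL8 has the largest value, at 1.99 with MS172.

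Of the other receptors and ligands of the family, 2 of 7 were tested, BTC and the neuregulin gene NRG2, and neither was called in any of the 3 comparisons. ERBB4, EGF, NRG1, NRG3 and NRG4 were at most 0.285 CPM in any library. Of 11 genes of ligand shedding, 9 were tested, of which 2 rose and 1 fell with MS172, at a median of -0.10. Of all tested genes, 35.1% were called with MS172 and 15.5% with PK9328. ADAM9, a metalloprotease able to shed HB-EGF, fell by 0.42 ± 0.04 (SE, edgeR adjusted p = 1.1e-07), whereas the related ADAM15 rose by 0.28 (edgeR adjusted p = 3.2e-05). FRMD8, a partner of the iRhom proteins that carry ADAM17 to the surface, rose by 0.22 (edgeR adjusted p = 6.7e-05). With PK9328, ADAM15 alone of these 9 was called, at -0.17 (edgeR adjusted p = 0.015, or 0.057 with library totals), and the list median was -0.07. With the covariate 0 of the 9 were called, and ADAM15 had -0.16 (edgeR adjusted p = 0.541). Library totals gave 2 higher and 3 lower with MS172.

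Of 23 genes that restrain or traffic the receptors, 20 were tested, with 3 higher and 4 lower with MS172 (median -0.05) and 3 higher and 3 lower with PK9328 (median 0.06). The shares over all tested genes were 17.9% higher and 17.2% lower with MS172, and 7.98% and 7.48% with PK9328. RNF41, a ubiquitin ligase for ERBB3 also called NRDP1, rose with PK9328 by 0.44 ± 0.05 (SE, edgeR adjusted p = 7.4e-08) and had -0.01 with MS172 (edgeR adjusted p = 0.93). SOCS4, which promotes EGFR degradation, had 0.28 with PK9328 (edgeR adjusted p = 0.011) and -0.28 with MS172 (edgeR adjusted p = 0.007). The recycling protein RAB11FIP1 showed the same pair of directions, at 0.30 and -0.23 (edgeR adjusted p = 0.0078 and 0.022). With MS172, RAB7A, a GTPase of late endosomes, and EPN1, an endocytic adaptor, rose by 0.27 and 0.26, and LRIG2 fell by 0.32. With PK9328, PTPRJ, a phosphatase, and SH3KBP1, the adaptor CIN85, fell by 0.21 and 0.20. MS172 against PK9328 gave 5 higher and 9 lower of the 20, where 23.3% of all tested genes were higher and 24.4% lower. Library totals gave 2 higher and 11 lower with MS172, and 2 higher and 13 lower between the compounds. With the fragment length covariate 1 was called with PK9328, SOCS4, and RNF41 had 0.35 (edgeR adjusted p = 0.0664).

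Of 26 adaptor, RAS-ERK and PI3K genes, all tested, 9 rose and 2 fell with MS172 (median 0.03), and 0 rose and 1 fell with PK9328 (median -0.01). Over all tested genes 35.1% were called with MS172 and 15.5% with PK9328, and whether the list differs between the compounds beyond that was not tested. MAP2K2, the kinase MEK2, rose with MS172 by 0.27 ± 0.04 (SE, edgeR adjusted p = 1.3e-06), and the adaptors SHC1 and GRB2 rose by 0.23 and 0.18. PLCG1, a phospholipase recruited by EGFR, fell by 0.28. The gene called with PK9328 was PIK3R2, a PI3K subunit, at -0.18 (edgeR adjusted p = 0.00074). Between the compounds, where 47.7% of all tested genes were called, 9 were higher and 5 lower with MS172, among them AKT1 at 0.22. The balance of this list depended on the scaling, since library totals gave 3 higher and 10 lower with MS172 and 2 higher and 12 lower between the compounds, with medians of -0.08 in both. GRB2 with MS172 then had 0.07 (edgeR adjusted p = 0.103), and AKT1 between the compounds 0.08 (edgeR adjusted p = 0.0605). With the covariate PIK3R2 had -0.20 with PK9328 (edgeR adjusted p = 0.232).

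Of 16 genes that ERK signalling is known to raise, 6 rose and 4 fell with MS172 (median 0.01), and 4 rose and 3 fell with PK9328 (median 0.05). Among all tested genes 17.9% were higher and 17.2% lower with MS172, and 7.98% and 7.48% with PK9328. Whether the list differs from these shares was not tested. FOSL1, an AP-1 subunit, rose with MS172 by 0.64 ± 0.04 (SE, edgeR adjusted p = 2.6e-13) and had -0.10 with PK9328 (edgeR adjusted p = 0.11). The ETS factor ETV4 had 0.38 with MS172 (edgeR adjusted p = 4.8e-09) and -0.13 with PK9328 (edgeR adjusted p = 0.022, or 0.101 with library totals), while ETV5 rose with both, by 0.21 each. IER3 also rose with both, by 0.50 with MS172 and 0.33 with PK9328. EGR1 fell with MS172 by 0.25 and rose with PK9328 by 0.20, and CCND1, which encodes cyclin D1, fell with PK9328 by 0.38 and had 0.00 with MS172. SPRED2, an inhibitor of the pathway, rose with MS172 by 0.35. Library totals gave 5 higher and 6 lower with MS172 and a median of -0.10, and with the covariate CCND1 was the 1 gene of the list called with PK9328.

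Among 11329 coding genes of at least 1 CPM, those whose log2 CPM was most like that of HBEGF over the 9 libraries included INSIG1 (Pearson r = 0.996), TXNRD1 (0.991), SCD (0.990) and SLC2A3 (0.990). These 4 were highest with MS172 and lowest with DMSO, with TXNRD1 at 299 CPM with MS172, 189 CPM with PK9328 and 147 CPM with DMSO. Those most like ERBB2 were GAA (0.990), SEZ6L2 (0.989), PCNA (0.986), TAF4 (0.985) and QSOX1 (0.983), with PCNA at 116 CPM with MS172, 83.8 CPM with PK9328 and 101 CPM with DMSO. These values describe 9 libraries in 3 groups that share their depth and scaling.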

How the data were processed

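Each library's deposited table lists 197653 transcripts with, per the file headers, an estimated count, a TPM value, a length and an effective length. The deposited TPM values are proportional to the estimated count over the effective length in each library. FastQC 0.11.8 and hg38 are named in the submitters' processing notes. The quantifier and its index were not given in the sources used here. By ID without version, transcripts were matched to GENCODE 29 (193505 matched; 0.356% to 0.382% of reads unmatched and left out), and estimated counts were summed per gene and rounded. All 9 libraries entered 1 fit of edgeR 4.0.16 (R 4.3.3; quasi-likelihood test, robust, TMM, filterByExpr, 6 residual degrees of freedom), with Benjamini-Hochberg adjustment over 13914 genes and a threshold of 0.05. Each standard error is the fold change divided by the square root of its F value. The procedure was tested on simulated counts with the same spread for every gene and no difference in fragment length. That test does not cover the effects of fragment length or of unequal spread. CPM values use TMM-scaled totals (factors 0.940 to 0.949 with MS172, 1.03 to 1.05 with PK9328 and 1.00 to 1.03 with DMSO). Alternatives were RLE factors, DESeq2 1.42.0, limma-voom (limma 3.58.1), other filters, the replicate block, length-scaled TPM, only the libraries compared, a fragment length covariate and each library left out, and, added after seeing the data, library totals. Genes of the pathway lists are named by a fixed rule, namely up to the 4 smallest p-values past the threshold per list and comparison. The genes most like a member are the 5 with the highest Pearson r (log2 CPM) for the ligand and the other member with the smallest F test p, of which 1 is not reported here. The chromosome 4 neighbours were named after their values were seen. The members and lists were chosen with earlier results of these data known.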

Additional observations from a re-analysis of the deposited data

How the results depend on the processing

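Of 384 single-gene values under the alternatives, 354 kept their direction and their side of the threshold, 14 lost the call, 10 gained one and 6 turned round. HBEGF, AREG and EGFR with MS172, ERRFI1 with PK9328, and HBEGF, ERBB2 and ERRFI1 between the compounds kept their calls in all 16 alternatives. Turned round were ERBB3 with length-scaled TPM (0.086 for MS172 against DMSO and 0.38 against PK9328), with the fragment length covariate (0.018 against PK9328) and without MS172 replicate 2 (range without 1 library -0.057 to 0.0049 against PK9328), and ADAM17 (-0.024) and ERRFI1 (-0.074) for MS172 against DMSO with library totals. The causes were not tested. With the covariate, 1 member was called for PK9328 against DMSO in place of 6. Over all genes the counts were then 175 for PK9328 against DMSO and 2474 for MS172 against PK9328, in place of 2151 and 6641, and the share of higher calls was 62.3% for PK9328 against DMSO in place of 51.6%. Length-scaled TPM gave 1066 for PK9328 against DMSO. Library totals gave 1474 higher and 605 lower for PK9328 against DMSO, and 1302 and 5747 for MS172 against PK9328. Leaving out 1 library gave 4 to 5 members called for MS172 against DMSO, 5 to 6 for PK9328 against DMSO and 4 to 6 for MS172 against PK9328, and 1384 (without DMSO replicate 1; 1400 without PK9328 replicate 2) to 2215 genes in all for PK9328 against DMSO. Deviations from the group mean were not shared by libraries of the same number (correlations -0.0569 to 0.0174, and -0.0491 to 0.0564 for different numbers). This cannot show whether same-numbered libraries were handled together, which is not stated. The replicate block gave 5, 6 and 5 members in the 3 comparisons, in place of 5, 6 and 4. EGFR between the compounds was the call added (edgeR adjusted p = 0.0345). Estimated reads limit TGFA and EPGN, where no difference could be tested.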
